A study of Mus musculus with 16 samples.

Results

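Broad domains of the histone mark H3K27me3 were examined in CCN6KOT cells, a mouse breast cancer line labelled as spindle metaplastic breast tumour and lacking CCN6, a secreted matricellular protein. A domain was an autosomal stretch of at least 5000 bp obtained by merging overlapping peaks of 8 H3K27me3 libraries, leaving out one block of chromosome 9, and 947 of 56174 autosomal regions outside that block were domains (1.69%), out of 61441 merged regions in all. The dnTCF4 group consisted of 4 libraries from CCN6KOT cells that had received DNTCF4 by lentivirus, a dominant negative construct directed at the beta-catenin pathway. The control group consisted of 4 libraries from CCN6KOT cells that had received the control virus, named PPGS in the sample titles. Both groups carried the knockout and had been selected with puromycin, so no comparison with CCN6-expressing cells was possible. The libraries were numbered 1 to 4 in each group, and the labels do not tell whether a number stands for its own culture. The p-values below therefore reflect library-to-library spread, part or all of which could be technical. In a bulk preparation, a mark present in fewer cells and a weaker mark in every cell cannot be told apart.

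H3K27me3 is trimethylation of lysine 27 of histone H3 and is written by EZH2 or EZH1, the catalytic subunits of Polycomb repressive complex 2. EED, another subunit, binds the finished mark and stimulates the enzyme, which lets the mark spread from recruitment sites, often CpG-rich, over neighbouring nucleosomes. Long stretches of the mark are best known over silent developmental genes such as the Hox clusters, which specify position along the body axis. In mammary tumours EZH2 is studied for its link to lost luminal differentiation, and the study asked how EZH2 shapes chromatin when beta-catenin/TCF signalling is blocked.

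Sequences at the domains are shown first because the position of domains relative to CpG-rich promoters is one of the patterns described here. Each promoter runs 5′ to 3′ from 250 bases before to 50 bases after the start site (RefSeq, GRCm38.p6, the same assembly as mm10), and CG dinucleotides are in capitals. Lalba is the start named by the rule for sequences, and Krt73 and Lrrc17, which also start inside a domain, and Pax2, a gene with a domain in its body and none at this start, were chosen after their values were seen.
Lalba promoter, chr15:98482634-98482933, minus strand: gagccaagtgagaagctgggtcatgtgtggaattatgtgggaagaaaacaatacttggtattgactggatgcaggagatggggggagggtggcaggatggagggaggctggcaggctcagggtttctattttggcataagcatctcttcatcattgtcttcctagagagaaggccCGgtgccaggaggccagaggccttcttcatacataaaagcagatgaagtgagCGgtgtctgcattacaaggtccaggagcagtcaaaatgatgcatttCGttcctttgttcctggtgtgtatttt
Krt73 promoter, chr15:101802311-101802610, minus strand: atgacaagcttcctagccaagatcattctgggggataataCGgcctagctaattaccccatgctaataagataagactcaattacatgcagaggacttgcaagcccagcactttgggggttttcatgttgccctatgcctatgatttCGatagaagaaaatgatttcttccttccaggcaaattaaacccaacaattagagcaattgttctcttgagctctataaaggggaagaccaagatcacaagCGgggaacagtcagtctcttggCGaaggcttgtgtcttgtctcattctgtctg
Lrrc17 promoter, chr5:21543277-21543576, plus strand: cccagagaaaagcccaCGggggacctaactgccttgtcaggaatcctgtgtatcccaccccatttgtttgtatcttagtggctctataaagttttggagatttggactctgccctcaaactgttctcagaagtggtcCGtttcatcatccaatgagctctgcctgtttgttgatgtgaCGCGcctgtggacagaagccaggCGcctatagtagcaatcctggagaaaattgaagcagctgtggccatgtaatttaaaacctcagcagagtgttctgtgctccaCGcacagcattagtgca
Pax2 promoter, chr19:44756656-44756955, plus strand: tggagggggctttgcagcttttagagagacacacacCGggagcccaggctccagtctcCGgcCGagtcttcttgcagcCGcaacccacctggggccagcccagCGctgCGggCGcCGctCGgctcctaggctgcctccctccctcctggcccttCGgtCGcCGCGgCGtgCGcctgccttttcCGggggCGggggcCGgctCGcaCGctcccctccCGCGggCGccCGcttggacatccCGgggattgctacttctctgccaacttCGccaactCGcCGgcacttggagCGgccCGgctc
The first 3 windows hold 3, 4 and 6 CG dinucleotides, whereas the Pax2 window holds 30. This Pax2 window lies 23.0 kb from the nearest domain, which is not the one in the gene body, and is the one with the most CG of its gene. The other Pax2 windows hold 7 and 23, and the Nkx2-5 window, 1.16 kb from a domain, holds 9. One microRNA lies in a domain that carried a peak in all 8 libraries, and its mature strand is shown with the seed (bases 2 to 8) in capitals.
miR-196a-5p, chr15:102973365-102973386, plus strand: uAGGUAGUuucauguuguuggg
Mir196a-2 encodes this strand between Hoxc10 and Hoxc9, and miR-196 is known to repress Hox messages. Of 919 autosomal hairpins outside the chromosome 9 block, 6 lay in domains, and the other 5 were Mir3088, Mir7221, Mir670, Mir7k and Mir8095.

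The domains spanned 6.81 Mb, which was 12.3% of the 55.3 Mb covered by all autosomal regions outside the block. Their median length was 6370 bp, against 573 bp for the shorter regions. Many sat close to the minimum, with 376 between 5 and 6 kb, 96 of at least 10 kb and 5 of at least 20 kb. Just inside the minimum were stretches in Pdcd1lg2 (5002 bp), Esm1 (5006 bp), Gckr (5007 bp) and Abcc3 (5010 bp) and one near Mapt (5010 bp). Just outside were stretches near Heatr1 (4999 bp), Card6 (4996 bp), Amigo2 (4995 bp) and Mnx1 (4995 bp). A further 53 merged regions of this length on the X chromosome and 22 in the chromosome 9 block are not included.

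One library supplied most of the length. The libraries dnTCF4 1 to 4 held 21492, 191, 4885 and 1838 peaks, and control 1 to 4 held 426, 738, 54070 and 22745. Single peaks of 5 kb or more numbered 104, 0, 4 and 0 in dnTCF4 1 to 4, against 0, 0, 751 and 64 in control 1 to 4. Of the 947 domains, 743 held a control 3 peak that was itself at least 5 kb long, and 169 held no peak of that length in any library and arose by joining shorter ones. Without control 3 the same rule gave 219 domains with 1.49 Mb in all. These overlapped 215 of the 947, including 11 of the 12 longest. The deposited lists hold no read counts, so sequencing depth is unknown, and where a list has no peak the mark may still be there.

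Domains carried peaks from more libraries than shorter regions did. A peak was present in at least 5 libraries in 373 domains (39.4%), against 811 shorter regions (1.47%), and in at least 2 libraries of each group in 630 domains (66.5%), against 4.65% of shorter regions. These shares describe the merged lists, because a longer stretch can collect peaks from more lists and because all 8 lists chose the stretches. The most frequent combination was dnTCF4 1 with control 3 and control 4, in 261 domains, followed by these libraries with dnTCF4 3, in 228. Base by base the overlap was thinner, with 35.3% of domain bases covered in 1 library, 31.0% in 2 and 22.3% in 3.

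To read each library on stretches that its own peaks had not chosen, domains were rebuilt from the other 7 lists. This gave 219 domains for control 3 and 851 to 947 for the other libraries. Peaks of dnTCF4 1 to 4 covered 48.8%, 0.211%, 13.3% and 3.78% of the length of these domains, and peaks of control 1 to 4 covered 0.964%, 1.87%, 89.9% and 46.8%. The groups overlapped throughout this range. Shorter regions built from the same lists were covered to 20.8%, 0.0585%, 3.48% and 0.895% in dnTCF4 1 to 4, and to 0.142%, 0.274%, 69.9% and 19.8% in control 1 to 4. Domains were thus covered more than shorter regions in 8 of 8 libraries, 2.34, 3.60, 3.81 and 4.22 times as much in dnTCF4 1 to 4 and 6.79, 6.83, 1.29 and 2.37 times in control 1 to 4. Against the shorter regions of 2 to 5 kb alone the domains were again covered more in all 8 libraries, by 1.55 to 2.61 times in dnTCF4 and by 1.09 to 3.86 times in control libraries. The enrichment of domains over shorter regions averaged 1.77 ± 0.37 in dnTCF4 and 1.79 ± 1.19 in control libraries on the log2 scale (SD, n = 4 each; difference -0.015, two-sided exact permutation p = 0.943). Without control 3 this difference was -0.49 (exact permutation p = 0.286). Control 3 already covered 69.9% of the shorter regions, so its ratio could not be large. The control mean thus joins a bounded value with those of the short lists, and its closeness to the dnTCF4 mean is not read as likeness of the groups.

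**Figure D1:**
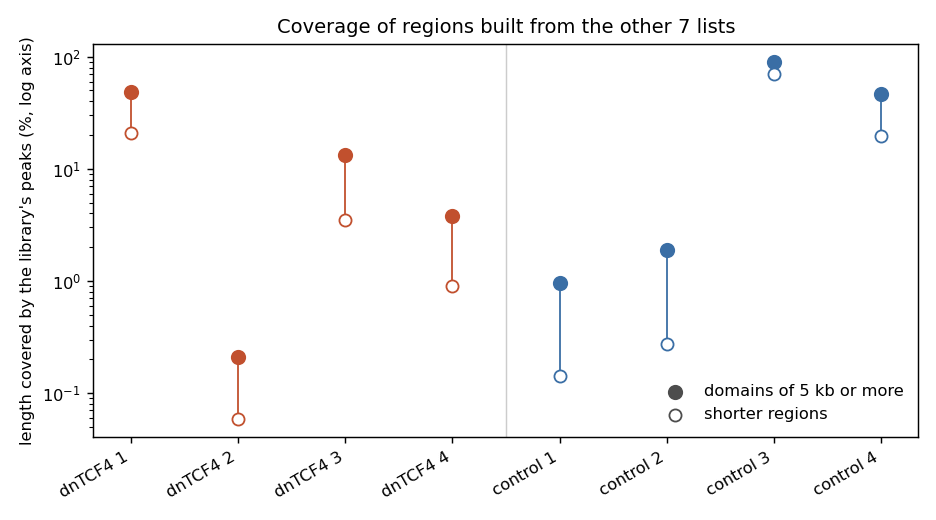
Percent of region length covered by each library's peaks (log axis), for domains of 5 kb or more (filled) and shorter regions (open) built from the other 7 lists, with dnTCF4 libraries in orange on the left and control libraries in blue on the right. The filled point lies above the open one in all 8 libraries, and the libraries of a group spread from 0.211% to 48.8% (dnTCF4) and from 0.964% to 89.9% (control).

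The domains were not shown to differ between dnTCF4 and control cells. Covered domain length averaged 0.683 ± 1.00 in dnTCF4 and 0.972 ± 0.984 in control libraries on the log10 percent scale (SD, n = 4 each; difference -0.288, two-sided exact permutation p = 0.714). The share of a library's own peak length that fell in domains was 30.6 ± 8.14% in dnTCF4 and 29.8 ± 22.6% in control libraries (SD, n = 4 each; difference 0.724 percentage points, exact permutation p = 0.886). For control 3 this share could only be small, because 48.3 Mb of its peaks were set against 1.49 Mb of domains rebuilt without it. It was 2.78% there and 13.2% on the domains of all 8 lists, so the test of this share cannot decide about the groups. The authors' fold enrichment of peaks in domains relative to other peaks of the same list differed by -0.045 on the log2 scale (dnTCF4 -0.0040 ± 0.026, control 0.041 ± 0.087, SD, n = 4 each; exact permutation p = 0.514). The smallest p these 70 assignments allow is 0.0286. Covered length turned to a difference of 0.0549 without control 3 and 0.158 without dnTCF4 2, and fold enrichment turned to 0.0064 without control 3. The share in domains was negative without dnTCF4 2, 3 or 4 or control 3 or 4, and with stricter peaks, equal lists or domains built once, the lowest being -4.93 percentage points without control 3, so none of these 3 differences kept its sign under every setting tried. One setting changed the call. With every list cut to its 129 most significant peaks, covered domain length was 0.225%, 0.211%, 0.200% and 0.206% in dnTCF4 1 to 4, against 0.348%, 0.246%, 0.492% and 0.315% in control 1 to 4. The difference was -0.201 on the log10 scale (exact permutation p = 0.0286), whereas over the other settings on this scale the difference ran from -0.682 to 0.158, with exact permutation p of at least 0.3. The domains with such a peak numbered 6, 32, 13 and 22 in dnTCF4 1 to 4, against 39, 34, 1 and 9 in control 1 to 4, and overlapped between groups. The value of control 3 came from 1 of 219 domains, and the others were read on 851 to 947. The values of control 1, 2 and 4 were each above those of all dnTCF4 libraries as well. Because the sets of domains were unequal and the lists were matched in peak number but not in peak width, this p is not read as a difference between groups.

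Control 3 had a peak in each of the 947 domains, so a domain with dnTCF4 peaks only could not occur. A peak in at least 2 dnTCF4 and 0 control libraries was found for 0 of 947 domains, against 0.23% of all autosomal regions. A peak in at least 2 control and 0 dnTCF4 libraries was found for 26 domains (2.75%), against 9.5% of all autosomal regions. In 25 of these 26 the peaks came from control 3 together with control 4, and without control 3 the count was 0. The remaining one, in Pgm5, which encodes a phosphoglucomutase-related protein of cell adhesion sites, measured 5077 bp. Peaks covered 0% of it in each of dnTCF4 1 to 4, against 0%, 7.25%, 98.7% and 77.6% in control 1 to 4. With lists of equal length 3 domains had dnTCF4 peaks only and 2 had control peaks only. These counts are too small to give a direction, and the share of all autosomal regions was not counted at this setting. In no domain did the covered share separate the groups completely, where 0.00356% of all autosomal regions were higher in all control than in all dnTCF4 libraries and 0 were higher in all dnTCF4 libraries.

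Domains found with the lists of one group were read in the lists of the other. The dnTCF4 lists alone gave 114 domains, and peaks of control 1 to 4 covered 3.76%, 5.66%, 90.2% and 66.3% of their length. The control lists alone gave 842 domains, and peaks of dnTCF4 1 to 4 covered 48.8%, 0.208%, 13.4% and 3.80% of their length. In both readings the coverage followed the order of list length within the group.

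By number of libraries, 3 domains had the largest excess in dnTCF4, with peaks in 4 dnTCF4 and 2 control libraries. The longest of them, 14920 bp, lay in Shank3, which encodes a scaffold of excitatory synapses. Peaks covered 73.0%, 1.54%, 41.0% and 1.23% of it in dnTCF4 1 to 4, against 0%, 0%, 96.5% and 75.2% in control 1 to 4. The others lay 52.7 kb from Gpcpd1 (9700 bp) and 92.1 kb from 4933412E24Rik (5987 bp). A further 157 domains had 1 more dnTCF4 library, among them stretches near Osmr (the oncostatin M receptor), near Otp (a hypothalamic homeobox factor) and in Adcy8 (an adenylyl cyclase). In the other direction 1 domain had 3 more control libraries, 55 had 2 more and 354 (37.4%) had 1 more. Among those with 2 more, a 15570 bp stretch 45.5 kb from Hoxc13 was covered to 37.2%, 0%, 13.8% and 0% in dnTCF4 1 to 4, against 3.73%, 13.8%, 100% and 71.9% in control 1 to 4. Stretches near Lrp12, near Alb (serum albumin), in Adam18 and in Tchh (trichohyalin of the hair follicle) had peaks in 1 dnTCF4 and 3 control libraries. These orderings were chosen by the values and were not tested, and the same differences were not counted over all autosomal regions.

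The longest domain measured 32854 bp (chr17:79899504-79932357) and lay between genes, 3.30 kb from Atl2, which encodes a GTPase that shapes the endoplasmic reticulum. Peaks covered 87.1%, 5.23%, 51.4% and 17.1% of it in dnTCF4 1 to 4, against 11.6%, 15.7%, 93.1% and 90.3% in control 1 to 4. It carried peaks in all 8 libraries, as did the third longest domain, 23193 bp, which followed it after a short gap. Together with 4 more they formed a run of 6 domains with 92.4 kb of domain length in 116 kb. Grap2, encoding an adaptor of T cell receptor signalling, held the second longest domain, 23526 bp. Its coverage was 54.1%, 0%, 28.5% and 3.38% in dnTCF4 1 to 4, against 11%, 12.1%, 98.6% and 52.1% in control 1 to 4. Next in length were domains in Enthd1 (22619 bp), 40.4 kb from Calcoco1 (21333 bp) and in Gjc1, the gene of connexin 45 (19961 bp). In Gjc1 coverage was 71.4%, 0%, 6.42% and 2.76% in dnTCF4 1 to 4, against 0%, 1.2%, 94.4% and 37.2% in control 1 to 4, so dnTCF4 1 stood apart in its group. The remaining ones of the 12 longest lay near Hoxc13, Zhx2, Hoxc4 and Slc4a8 and in Krt1, an epidermal keratin, and Skap1, an adaptor of T cells. Of the 5 longest domains that overlap no protein-coding gene, the one near Zhx2 lay farthest from any, at 67.4 kb.

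Peaks of all 8 libraries met in 14 domains. Among the longest of them were those near Atl2 (a pair), Hoxc13, Hoxc4, Hnrnpll, Ceacam15, Dlgap4 and Spon2, and those in Krt1, Mroh5 and the Hoxc10 to Hoxc9 stretch. The domain in Mroh5 (6412 bp) was covered to 75.5%, 4.54%, 40.7% and 11.6% in dnTCF4 1 to 4, against 12%, 13.9%, 92.2% and 100% in control 1 to 4. The domain near Ceacam15 was the 1 domain on chromosome 7 and was covered to 60.4%, 3.18%, 57.9% and 36.1% in dnTCF4 1 to 4, against 3.28%, 15.6%, 98.2% and 92.2% in control 1 to 4. These shared domains were thus covered in part by the shortest lists, dnTCF4 2 and control 1, and almost whole by control 3.

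**Figure D2:**
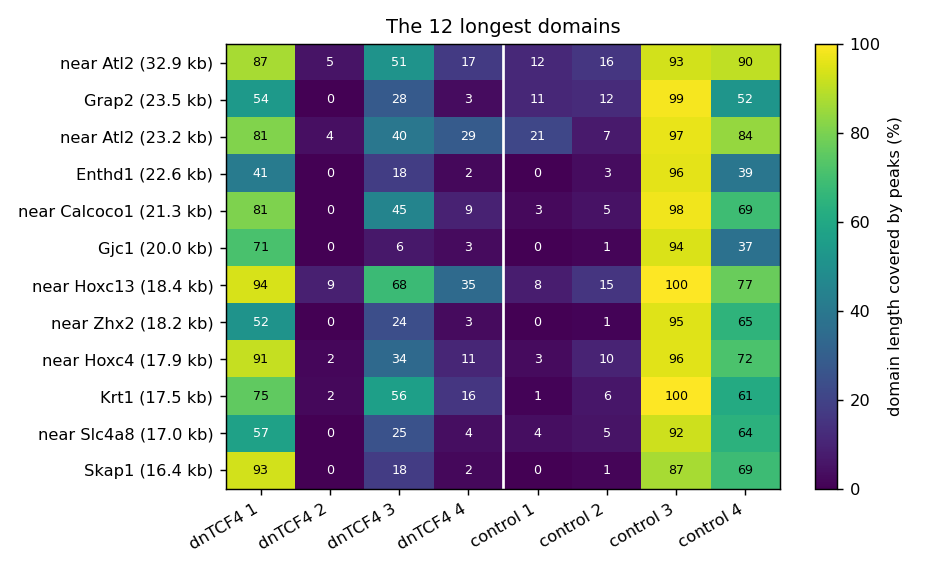
Percent of each domain's length covered by peaks in each library (colour and printed number), for the 12 longest domains, ordered by length, with dnTCF4 libraries left of the white line and control libraries right of it. Control 3 covers 86.9% or more of each domain shown, and dnTCF4 2 covers 8.78% or less.

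Domains were concentrated on chromosomes 15 and 2. Chromosome 15 held 220 domains (23.2%) on 4.22% of annotated length, and chromosome 2 held 211 (22.3%) on 7.40%. Domain length per Mb was 17.2 kb on chromosome 15 and 7.98 kb on chromosome 2, followed by 6.09 kb on chromosome 17 and 6.06 kb on chromosome 19. Chromosomes 10, 12 and 14 held 0 domains, chromosome 7 held 1 and chromosome 4 held 2. Shorter regions followed the same chromosomes with less contrast, from 46.3 kb per Mb on chromosome 15 to 4.52 kb per Mb on chromosome 12. The share of regions lying on chromosomes 2 and 15 was 19.8% below 1 kb, 35% at 4 to 5 kb and 59.4% at 10 kb or more. In domains built without control 3 this share was 63.0%, so the concentration did not rest on the longest list.

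**Figure D3:**
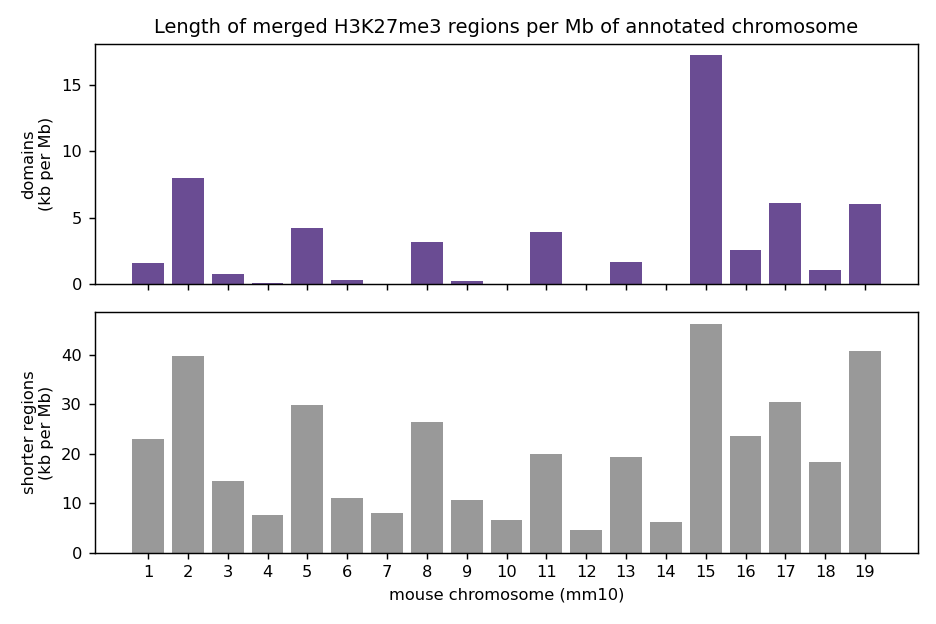
Length of domains (top) and of shorter regions (bottom) in kb per Mb of annotated chromosome, for the 19 autosomes, all 8 libraries merged. Chromosome 15 is highest in both panels (17.2 and 46.3 kb per Mb), and chromosomes 10, 12 and 14 have no domain.

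Domains also lay in runs. Neighbours less than 50 kb apart formed 168 runs of at least 2 domains, which together held 531 domains (56.1%). The largest run covered the Hoxc cluster and its flanks on chromosome 15 (chr15:102747596-103115163), with 22 domains that made up 215 kb of 368 kb. Peaks covered 70.6%, 1.17%, 33.9% and 11% of its domain length in dnTCF4 1 to 4, against 4.54%, 7.52%, 94.1% and 70.3% in control 1 to 4. Within the run, the domain ending 0.968 kb from Hoxc13 (18381 bp) was covered to 94.0%, 8.78%, 68.3% and 34.5% in dnTCF4 1 to 4, against 8.02%, 15.3%, 99.6% and 77.3% in control 1 to 4. It was the best covered domain of the run in dnTCF4 1, dnTCF4 2 and dnTCF4 4. By contrast the stretch 65.5 kb from Hoxc13 (9026 bp) had no peak in any dnTCF4 library and was covered to 94.3% in control 3 and 45.4% in control 4. The Hoxc10 to Hoxc9 domain, which holds the miR-196a sequence given above, was covered to 63.4%, 6.74%, 44.9% and 15.2% in dnTCF4 1 to 4, against 12.8%, 13.9%, 87.8% and 56.3% in control 1 to 4. The domain over Hoxc5 and Hoxc4 (10457 bp) was covered to 81.8%, 0%, 68.9% and 16.8% in dnTCF4 1 to 4, against 10.4%, 16.8%, 98.4% and 73.5% in control 1 to 4. The domain over Hoxc8 and Hoxc6 had peaks in 2 libraries of each group. Both groups thus carried the run, and dnTCF4 2 had peaks in the fewest of its domains.

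**Figure D4:**
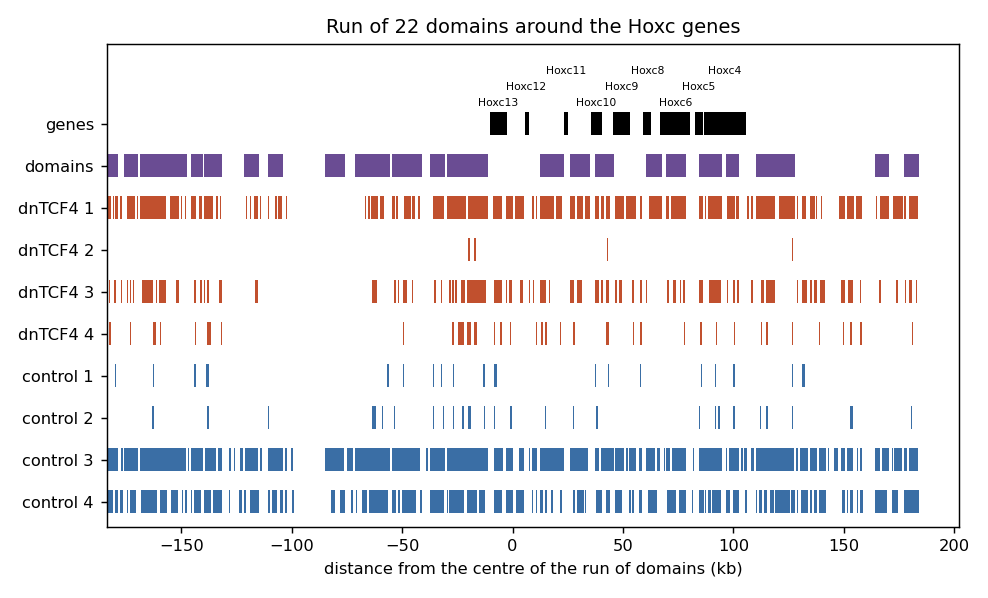
Map of the run of 22 domains around the Hoxc genes, in kb from its centre, with protein-coding genes in black, domains in purple, dnTCF4 peaks in orange and control peaks in blue. The domains extend on both sides of the genes, and dnTCF4 1, dnTCF4 3, control 3 and control 4 have peaks along most of the run.

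Among the 12 runs with the most domains, ties being ordered by domain length, 7 lay on chromosome 15, 3 on chromosome 11 and 1 each on chromosomes 2 and 17. A run of 10 domains lay near 4933412E24Rik on chromosome 15 (85.9 kb in 166 kb), and a run of 9 over Skap1 on chromosome 11 (74.7 kb in 220 kb). Another run of 9 on chromosome 11 held the keratin genes Krt24, Krt25 and Krt20 (71.3 kb in 213 kb). Its peaks covered 45.6%, 0%, 2.90% and 0.602% of domain length in dnTCF4 1 to 4, against 0%, 0.279%, 96.0% and 43.4% in control 1 to 4. A run of 8 held Ikzf3, a lymphoid transcription factor, with Zpbp2 and the gasdermin genes Gsdma3 and Gsdma2. On chromosome 15 runs of 7 lay over Enthd1 and Grap2, over Gm5414 and the keratin Krt6a, near Osmr, in Egflam and in Rims2, which acts in synaptic vesicle release. On chromosome 2 a run of 7 lay over the transglutaminase gene Tgm6 and the hair cell channel gene Tmc2 (49.4 kb in 134 kb). Counted by family after the values were seen, domains overlapped 9 of 53 keratin genes (17.0%), 4 of 9 gasdermin genes, 6 of 9 Hoxc genes and 0 of 30 Hoxa, Hoxb and Hoxd genes, against 1.43% of all 20647 protein-coding genes. They overlapped 4 of 1104 olfactory receptor genes (0.362%) and 0 of 56 keratin-associated protein genes. Members of a family lie side by side, so 1 run can mark several of them. The Hoxc genes and the keratins Krt6a, Krt73, Krt1, Krt77 and Krt76 lie on chromosome 15. It had 17.2 kb of domain per Mb, the most of any autosome. The 1.43% of all genes is therefore no baseline for that chromosome, and family and chromosome were not told apart.

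Most domains lay away from gene starts. Counting the genes with a start in the RefSeq promoter table, a protein-coding start lay in at least 37 domains (3.91%), 354 lay in gene bodies without a start (37.4%) and 556 between genes (58.7%). For shorter regions of 2 to 5 kb these shares were 1.45%, 37.5% and 61.1%. The 37 domains with a start were covered to 56.2%, 0.0630%, 18.3% and 4.20% in dnTCF4 1 to 4, against 1.90%, 0.783%, 91.6% and 49.2% in control 1 to 4. Domains between genes were covered to 51.2%, 0.239%, 12.9% and 4.07% in dnTCF4 1 to 4, against 0.998%, 1.94%, 94.0% and 48.6% in control 1 to 4. The libraries differed far more than the positions did.

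Among starts with a promoter window, those inside domains were mostly poor in CpG. Windows were given for 16439 of the 20647 genes, 20061 in all, and 39 windows of 38 genes had their start in a domain. Their median observed over expected CpG was 0.271 and their median GC content 47.7%, against 0.586 and 57.0% for all windows. Of 9823 windows with a ratio of at least 0.6, 1 had its start in a domain (0.0102%), that of Fndc11 on chromosome 2. Of 10238 windows below 0.6, 38 did (0.371%). Without control 3 these counts were 1 CpG-rich and 11 CpG-poor starts. Immediately outside domains the classes were alike in number, with 29 CpG-rich and 28 CpG-poor starts within 1 kb of a domain edge. Starts inside shorter regions were CpG-poor too, with a median ratio of 0.212 over 197 windows. With cut-offs of 0.4 and 0.75, the starts in domains numbered 11 and 0 on the CpG-rich side, out of 12360 and 6965 windows. Genes with a CpG-poor start in a domain included Lalba, Krt73, Lrrc17, the endothelial adhesion gene Sele, the chemokine gene Cxcl9, the bone matrix gene Ibsp and the uroplakin gene Upk3a. Of the 19 list members overlapped by a domain, 9 had no window (Cacna1a, Ehf, Grhl2, Hoxc10, Hoxc5, Hoxc6, Hoxc8, Hoxc9 and Krt6a), and in 8 of these 9 an outer end of the gene lay in a domain. The table without strand does not tell which end is the start, and these genes enter none of the CpG counts. Of the 10 members with a window, Lalba, Hoxc4 and Nkx2-5 also had an outer end in a domain. The window of Nkx2-5 is on the minus strand and lies 1.16 kb outside its domain. The upper end of this gene, on the start side, lay inside, so a start there would not be counted. Of the 39 Hox genes, 17 have no window. A TCF/LEF core motif, CTTTGAT on either strand, was found in 1 of the 39 windows (2.56%), that of Atp6v1g3, against 3.25% of all windows.

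Among the gene lists, the Hox genes had the most members overlapped by a domain, with 6 of 39 (15.4%), all of them Hoxc genes in 1 run, against 1.43% of all protein-coding genes. That run lies on chromosome 15, which held 23.2% of the domains on 4.22% of annotated length. Gene class and chromosome were not told apart. Without control 3 domains overlapped 3 Hox genes, against 84 of all genes. A domain lay within 50 kb of 15 Hox genes (38.5%), against 6.32% of all genes. Other homeobox genes had 5 of 90 overlapped (5.56%), and 1 of 90 without control 3. The domain in Pax2, a factor of kidney and eye development, measured 8352 bp and was covered to 49.9%, 0%, 18.5% and 2.31% in dnTCF4 1 to 4, against 0%, 0%, 91.8% and 64.1% in control 1 to 4. The domain at Nkx2-5, a heart factor, was covered to 75.3%, 0%, 6.88% and 9.79% in dnTCF4 1 to 4, against 0%, 0%, 100% and 51.5% in control 1 to 4. In both, the groups overlapped. The others were Lhx2, Pitx3 and Lhx9. Of 78 Fox, Sox, T-box, Gata and basic helix-loop-helix genes, 0 were overlapped.

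Of the epithelial, mesenchymal and mammary lists, 0 to 2 members were overlapped, where 1.43% of all genes were and lists of this size would hold about 1 or none, so the counts are no result about these lists. Of 48 epithelial genes 2 were overlapped, Ehf and Grhl2, and of 40 mesenchymal genes 0 were. Ehf, an epithelial ETS factor, held a 14010 bp domain covered to 75.7%, 0%, 31.3% and 17.9% in dnTCF4 1 to 4, against 0%, 6.36%, 98.5% and 68.7% in control 1 to 4. Grhl2, a factor that maintains epithelial junctions, held a domain of 5423 bp covered to 43.9%, 0%, 24.9% and 13.4% in dnTCF4 1 to 4, against 0%, 0%, 96.2% and 57.8% in control 1 to 4. Lalba, the milk protein alpha-lactalbumin, was 1 of 2 overlapped luminal and milk genes out of 26, Ehf being the other. Its start, shown above, lay in a 10609 bp domain covered to 87.5%, 1.64%, 33.1% and 24.4% in dnTCF4 1 to 4, against 8.96%, 0%, 100% and 50.2% in control 1 to 4. Krt6a was the overlapped member of 26 basal and myoepithelial genes, with peaks in 1 dnTCF4 and 2 control libraries.

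Lists of the pathways named by the study held 0 or 1 overlapped members, where 1.43% of all genes were overlapped, so the counts are no result about these pathways. Of 40 Wnt ligands and antagonists 1 was overlapped, Wnt8b, a ligand of forebrain development, whose 7608 bp domain was covered to 64.0%, 0%, 22.6% and 3.23% in dnTCF4 1 to 4, against 0%, 0%, 94.9% and 32.8% in control 1 to 4. Domains overlapped 0 of 34 beta-catenin/TCF factors and targets, 0 of 37 BMP, GDF and activin ligands and antagonists, 0 of 29 Polycomb subunit genes and 0 of 23 genes tied to the study. The same limit holds for the lists that follow. Of 57 neuronal receptor and channel genes 2 were overlapped, Cacna1a, a presynaptic calcium channel, and Kcnj4, an inward rectifier potassium channel. Of 43 ribosomal protein and housekeeping genes 0 were. Among markers of other cell types, domains overlapped 1 of 6 endothelial genes, Kdr, and 0 of 8 immune, 0 of 6 adipocyte, 0 of 5 muscle and 0 of 5 neural and glial genes. A peak list holds no expression values, so the labelled cell type was not checked against expressed markers.

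**Figure D5:**
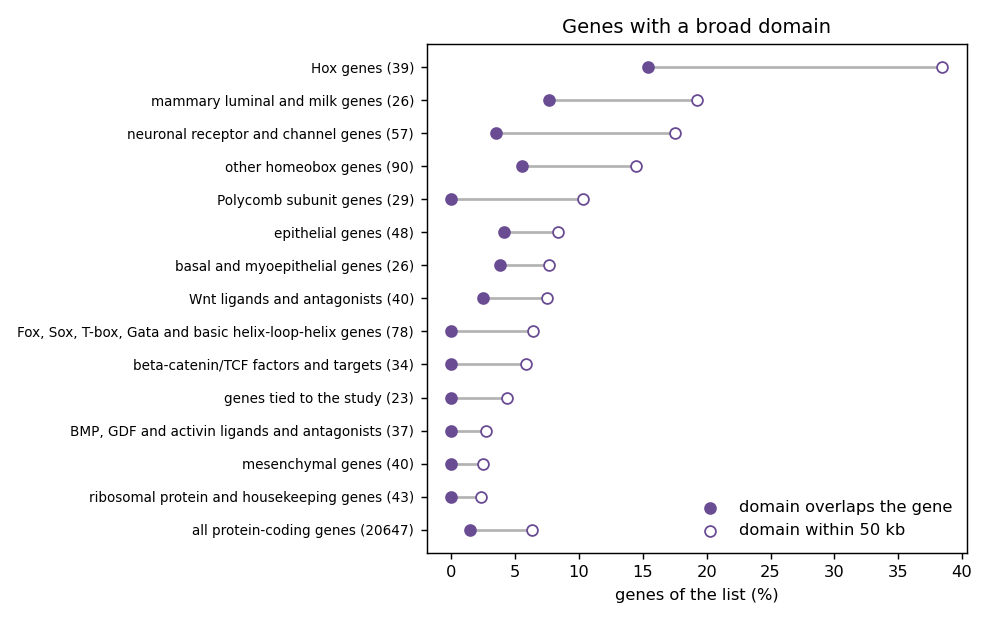
Percent of the genes of each list (number of genes in parentheses, lists of at least 20 genes) overlapped by a domain (filled) or with a domain within 50 kb (open), with all protein-coding genes at the bottom. The Hox genes reach 15.4% and 38.5%, against 1.43% and 6.32% for all genes. The overlapped Hox genes are all Hoxc genes on chromosome 15.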

How the data were processed

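Per the submitters' processing notes, the reads were handled with MACS2 2.1.2, bedtools 2.28.0, SAMtools 1.2, Picard 2.20.2, Bowtie2 2.3.4.1, cutadapt and Trim Galore, on build mm10. The labels' protocols give 4 micrograms of antibody, 1% formaldehyde and ChIPmentation, in which adapters are added by a transposase. The tools' options and the peak caller's control were not given in the sources used here. Data of the 8 IgG samples were not used here. The deposited lists, called per library as their peak names show, hold for each peak a score, a fold enrichment ratio, a −log10 p and a −log10 q value, all the authors' own. The lowest deposited −log10 q was 1.01.

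Peaks sharing at least 1 base were merged, and the count of merged regions was the same with bedtools. Covered share was log10-transformed after adding 0.01. Group means were compared by two-sided exact permutation tests. Merging, coverage and the test were checked on simulated peaks. Genes came from RefSeq (GRCm38.p6), as outermost ends without strand. Of 608 genes in 19 lists, 595 were autosomal, outside the chromosome 9 block and matched. Domains named are the longest, the most shared, those differing most in number of libraries, those holding most genes or none, those nearest the minimum, and list members, apart from a few that are not reported here. The members and lists were chosen with earlier results of these data known. Python 3.11.15, numpy 2.4.6 and pandas 2.3.3 were used.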

Additional observations from a re-analysis of the deposited data

Results flagged for a closer look

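Within groups of 4 libraries, a value was marked when its gap to the nearest other library took up most of the group's range. Chance does this in about 1 of 20 groups when values are normally distributed, which these were not shown to be. Among whole-library measures, dnTCF4 1 stood apart in the number of peaks of 5 kb or more (104, against 0, 0 and 4 in the other dnTCF4 libraries), and control 3 in the same measure (751, against 0, 0 and 64 in the other control libraries). The fold enrichment of domain peaks over other peaks also stood apart in dnTCF4 1, at 0.0351 on the log2 scale. Among 115 groups with any coverage at 59 named domains, 16 values stood apart, 14 of them from dnTCF4 1 and 2 from control 3, the longest list of each group. Where every other library of the group covered 0%, the remaining value was marked whatever its size. This held for dnTCF4 1 near Lrp12, near Alb, in Adam18, in Tchh and at Lhx2, Lhx9 and Krt6a. The number of marks is therefore not set against the rate given above.

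Covered shares in dnTCF4 1 stood apart with 85.3% in the domain at Hoxc8, 75.3% at Nkx2-5, 68.6% at Lhx2, 81.4% at Pitx3, 83.8% at Lhx9, 49.8% near Otp, 35.9% in Cacna1a, 86.9% in Kcnj4, 71.4% in Gjc1 and 62.1% at Krt6a. The rest were near Lrp12 (34.9%), near Alb (28.5%), in Adam18 (42.8%) and in Tchh (22.2%). Control 3 stood apart in Tchh (98.5%) and Lhx9 (87.6%).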

How the results depend on the processing

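The number of domains and their length in Mb depended on the minimum length, with 3103 and 14.9 at 3 kb and 96 and 1.27 at 10 kb. They were 2227 and 18.2 with peaks joined up to 1 kb apart, 63 and 0.531 at a −log10 q of at least 3, and 516 and 3.57 without chromosomes 2 and 15, chosen after seeing the data. Leaving out 1 library at a time gave 219 to 947 domains with 1.49 to 6.81 Mb. Domains with control peaks only numbered 279 of 3103, 1 of 96, 149 of 2227 and 5 of 63 under the first 4 of these settings. They numbered 112 of 947 when a peak had to cover 20% of a domain, and 2 of 947 with lists cut to equal length. With 1 library left out they ran from 0 to 279 (0 of 219 without control 3, 1 of 872 without control 4, 279 of 851 without dnTCF4 1). Domains with dnTCF4 peaks only numbered 3 with equal lists, against the 2 with control peaks only. The share of all autosomal regions was not counted at these settings, so these counts are no result about the domains.

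With equal lists of 129 peaks the covered share differed by -0.201 (exact permutation p = 0.0286, the smallest possible, where the value of control 3 came from 1 of 219 domains and the others were read on 851 to 947), the share in domains by -3.69 percentage points and fold enrichment by 0.0072, and over the leave-one-out settings they ran from -0.635 to 0.158, -4.93 to 7.05 and -0.066 to 0.0064. The share in domains was -2.51 at the stricter q and -1.49 with domains built once from all lists. Coverage against shorter regions ran from -0.49 to 0.31 and turned to 0.17 without dnTCF4 1, 0.31 without control 1 and 0.31 without control 2. The cause of these changes was not tested. The CpG-rich starts in domains numbered 0 to 1 and the CpG-poor ones 11 to 38 with 1 library left out, and 3 and 77 at 3 kb. Without control 3, domains overlapped 84 of all genes and 3 Hox genes.

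The replicate block left the 3 group differences at -0.288, 0.724 and -0.045, with exact sign-flip p = 0.625, 0.875 and 0.625 (smallest possible 0.125). Same-numbered libraries had correlated deviations of -0.10, 0.18, -0.08 and -0.27, and differently numbered ones ran from -0.43 to 0.46. List lengths differ so widely within a group that these values cannot tell whether the numbers pair the samples. The main tests were planned without a replicate block.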
